A study of Mus musculus x Mus spretus with 8 samples.

Results

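RNA levels were compared between the 2 libraries labelled Stc1 -/- and the 2 libraries labelled Pygo1 -/-, which make up 4 of the 8 libraries of the series. They were chosen by label alone, and no wild-type (WT) library entered the contrast. All libraries came from Patski, a female fibroblast line whose parents were C57BL/6 and SPRET/EiJ mice, grown in DMEM with 10% serum. Each knockout label stands for a pair of independent homozygous null mutants made in that line. Each library is therefore taken as a separate mutant line, with n = 2 lines per label throughout. The other 4 libraries, a WT pair and a pair labelled Rlim -/-, served to estimate the spread, and WT levels are given as background. How the alleles were made, which part of each gene was removed and how the WT pair was grown are not given in the sources used here.

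Stc1 encodes stanniocalcin 1, a secreted glycoprotein first known from calcium control in fish, which in mammals acts locally and binds and inhibits the protease PAPP-A. Pygo1 encodes a pygopus protein, which reads a histone mark through its PHD finger and is carried to beta-catenin and TCF factors on Wnt target genes by BCL9. The contrast sets 2 null genotypes from separate pathways side by side in the same hybrid cells. Because the parents differ at many bases, reads that span such a base can be assigned to genome 1 or genome 2, and the RNA of each parental chromosome is measured apart. Neither parent is named as genome 1 in the labels.

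The libraries held 73128996 and 74961476 counts under the Stc1 label and 79145436 and 74346218 under the Pygo1 label, of which 51.1 to 52.6% carried a genome. Before any contrast, the lines under the Stc1 label stood apart from each other. Their median absolute log2 difference over 10443 genes averaging 5 CPM or more (counts scaled to library size with TMM factors) was 0.34, and 1026 genes (9.83%) differed over 2-fold. In the Pygo1-labelled pair it was 0.19, with 247 such genes (2.37%). Each library under the Stc1 label differed from each under the Pygo1 label by 0.25 to 0.33, so the gap within the Stc1-labelled pair was as wide as the gap between labels. The WT pair differed by 0.10 and the Rlim-labelled pair by 0.06, with 3 and 0 genes over 2-fold. Whether these 2 pairs vary as separate lines do was not tested. Mitochondrial transcripts took 7.87 and 4.64% of counts in the Stc1-labelled libraries, and 6.18 and 6.12% in the Pygo1-labelled ones.

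RNA of the targeted genes did not set their own knockout pair apart. Stc1 measured 3.67 and 68.4 CPM under the Stc1 label and 13.2 and 5.95 CPM under the Pygo1 label, against 3.84 and 3.15 CPM in WT. The pairs overlapped, and the highest level of all stood in Stc1-labelled replicate 2, against its label (log2 fold change 1.91 ± 1.08 SE, edgeR adjusted p = 0.421). Without that library the log2 fold change was -1.38 (edgeR adjusted p = 0.0913), and without replicate 1 it was 2.83 (edgeR adjusted p = 0.00418). Pygo1 measured 1.79 and 10.5 CPM under the Stc1 label and 2.50 and 0.674 CPM under the Pygo1 label, with 2.49 and 2.44 CPM in WT. Pygo1-labelled replicate 1 was level with WT and replicate 2 was the lowest library, and the pairs overlapped (log2 fold change 1.95 ± 0.86, edgeR adjusted p = 0.304). With Stc1-labelled replicate 1 left out the log2 fold change was 2.72 and passed (edgeR adjusted p = 0.018), and with replicate 2 left out it was 0.16. RNA of a mutated gene may still be transcribed and counted, and reads of Stc1 cannot be told from those of Gm41192, which overlaps it on the other strand. All directions below are therefore those between libraries labelled Stc1 and libraries labelled Pygo1.

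Xist, the RNA that coats the inactive X chromosome, measured 850 and 440 CPM in the Stc1-labelled libraries, 390 and 351 CPM in the Pygo1-labelled libraries, and 783 and 759 CPM in WT. The pairs did not overlap, reads of the antisense gene Tsix cannot be told apart, and the difference did not pass (log2 fold change 0.80 ± 0.28, edgeR adjusted p = 0.209). With Stc1-labelled replicate 2 left out it was 1.20 and passed (edgeR adjusted p = 0.00127), and with replicate 1 left out it was 0.25. Rlim, the X-linked ubiquitin ligase targeted in the remaining lines, measured 33.9 and 75.8 CPM under the Stc1 label against 53.1 and 34.2 CPM, and the pairs overlapped.

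Of 17839 genes tested, 310 (1.74%) passed an edgeR quasi-likelihood test at a Benjamini-Hochberg adjusted p under 0.05. In the Stc1-labelled libraries 91 genes (0.51%) were higher and 219 (1.23%) were lower, and 63 and 174 of these differed at least 2-fold. The median log2 fold change over all genes was 0.02. Both libraries of a label lay on the same side of both of the other label for all 310, and for 37.5% of all genes tested. The WT mean lay nearer to the Stc1-labelled mean for 67 of the 91 higher genes and 133 of the 219 lower ones, together 64.5%, against 54.4% of all genes.

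The count rests on the spread of the WT and Rlim-labelled pairs, which is narrower than that of either pair in the contrast. With the 4 libraries alone no gene passed in edgeR, where 1260 had an unadjusted p under 0.05. Without the Rlim-labelled pair 25 genes passed, without either WT library 22, and without either single Rlim-labelled library 25. Leaving out Stc1-labelled replicate 1 or 2 gave 4087 or 2372 calls, since the remaining library is then assumed to vary like the other groups, and leaving out Pygo1-labelled replicate 2 gave 166. DESeq2 called 1188 genes. Limma voom with a weight for each group called 72, of which 57 were among the 310.

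A core of 21 genes passed in edgeR in all 8 fits that leave out 1 library. It was picked after the values were seen, and 9 of its genes were higher and 12 lower in the Stc1-labelled libraries. Fxyd2, the regulatory gamma subunit of the sodium pump of kidney tubules, measured 8.48 and 8.19 CPM under the Stc1 label against 0.705 and 0.702 CPM under the Pygo1 label (log2 fold change 3.56 ± 0.14, edgeR adjusted p = 0.000744). Both pairs lay far below WT, at 73.3 and 79.6 CPM. Ucp2, a carrier of the inner mitochondrial membrane, measured 84.5 and 112 CPM under the Stc1 label against 20.6 and 19.03 CPM under the Pygo1 label, with WT at 90.5 and 96.1 CPM. Its log2 fold change was 2.31 ± 0.16 (edgeR adjusted p = 0.00404), and WT stood with the Stc1-labelled pair. Zfp618, a zinc finger gene, was higher at 55.2 and 56.4 CPM against 21.6 and 20.7 CPM. Cplx2, a complexin of vesicle release, was higher at 7.47 and 5.40 CPM against 0.277 and 0.454 CPM. The X-linked genes Eda, encoding ectodysplasin A, and Gspt2, encoding a translation release factor, were higher by 5.18 and 5.03 on the log2 scale.

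Among the 12 lower genes of that core, Lgals9, the sugar-binding galectin 9, measured 14.6 and 15.5 CPM in the Stc1-labelled libraries against 79.6 and 80.4 CPM in the Pygo1-labelled ones (log2 fold change -2.41 ± 0.12, edgeR adjusted p = 0.00088). The lines of each pair were nearly level, and WT lay at 26.4 and 28.8 CPM, closer to the Stc1-labelled pair. Kng1, the precursor of kinins, measured 3.32 and 1.86 CPM against 37.9 and 27.8 CPM. Snap91, a clathrin adaptor best known from neurons, measured 0.166 and 0.0666 CPM against 11.2 and 7.005 CPM. For both genes WT was near the Stc1-labelled level, at 4.22 and 4.27 CPM for Kng1 and 0.326 and 0.338 CPM for Snap91. Ncf4, a cytosolic subunit of the phagocyte NADPH oxidase, measured 0.125 and 0.133 CPM against 3.94 and 2.77 CPM. Cnmd, the cartilage glycoprotein chondromodulin, measured 0.360 and 0.280 CPM against 8.17 and 8.70 CPM.

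The 12 genes with the largest positive fold change, among calls averaging 5 CPM or more over the 4 libraries, were led by an enzyme of detoxification. Gstm4 (chr3:108040408-108044894, minus strand, GRCm38), a mu-class glutathione transferase, measured 23.1 and 14.7 CPM under the Stc1 label against 0.126 and 0.0826 CPM under the Pygo1 label. WT stood with the Stc1-labelled pair at 15.4 and 16.7 CPM (log2 fold change 7.47 ± 0.34, edgeR adjusted p = 0.000744). It lies among similar Gstm genes, between which reads can be split. Car13 (chr3:14641727-14663002, plus strand), a cytosolic carbonic anhydrase, measured 8.05 and 12.1 CPM against 0.0881 and 0.0963 CPM, with WT at 7.51 and 6.97 CPM (log2 fold change 6.74 ± 0.31, edgeR adjusted p = 0.000744). Both genes were nearly silent in the Pygo1-labelled pair, and both belong to the core of 21.

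Cadherins were among these genes. Cdh1, the epithelial E-cadherin, measured 20.1 and 6.36 CPM in the Stc1-labelled libraries against 0.201 and 0.344 CPM in the Pygo1-labelled ones, with WT at 9.52 and 8.91 CPM (log2 fold change 5.60 ± 0.62, edgeR adjusted p = 0.0151). Cdh11, a cadherin typical of mesenchymal cells, measured 23.1 and 16.3 CPM against 1.81 and 4.73 CPM, and here WT, at 2.64 and 2.41 CPM, stood with the Pygo1-labelled pair. Cxcl12, the chemokine that binds Cxcr4, was higher at 4.89 and 15.2 CPM against 0.982 and 1.43 CPM. Mecom, a zinc finger transcription factor of kidney and blood progenitors, was higher at 11.4 and 8.37 CPM against 1.91 and 1.57 CPM. Zfhx4, Crtac1, Cnnm1 and Ephb6 were also higher, with log2 fold changes between 2.25 and 5.47. WT lay nearer to the Stc1-labelled mean for each of these genes except Cdh11.

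At the other end, the 12 genes with the largest negative fold change included enzymes of lipid metabolism. Phyh (chr2:4919019-4938730, plus strand), the peroxisomal enzyme that starts the breakdown of phytanic acid, measured 3.23 and 1.38 CPM under the Stc1 label against 119 and 312 CPM under the Pygo1 label, with WT at 7.88 and 8.39 CPM. The Pygo1-labelled lines stood far above all others (log2 fold change -6.54 ± 0.62, edgeR adjusted p = 0.0107). Pla2g5, a secreted phospholipase A2, measured 0.0415 and 0.200 CPM against 5.54 and 16.4 CPM. Mlxipl, the carbohydrate-responsive transcription factor ChREBP, measured 0.928 and 0.346 CPM against 8.85 and 18.7 CPM, with WT at 1.04 and 1.18 CPM.

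Pde1b (chr15:103503034-103530052, plus strand), a calmodulin-dependent phosphodiesterase, measured 1.18 and 1.41 CPM in the Stc1-labelled libraries against 32.4 and 45.2 CPM in the Pygo1-labelled ones. WT matched the Stc1-labelled level at 1.34 and 1.82 CPM (log2 fold change -4.90 ± 0.27, edgeR adjusted p = 0.00136). Fetub, the protease inhibitor fetuin B, measured 0.139 and 0.359 CPM against 14.4 and 9.33 CPM. Pde1b and Fetub belong to the core of 21. Sfrp1, a secreted antagonist of Wnt ligands, measured 16.8 and 3.66 CPM against 543 and 188 CPM, and WT lay between the pairs at 123 and 117 CPM (log2 fold change -5.16 ± 0.82, edgeR adjusted p = 0.0378). Wscd1, Fndc1, Lncenc1, Saa1, Car14 and Pik3r6 complete the set, with log2 fold changes between -7.14 and -3.71.

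Of the 24 genes that the rule gives at both ends, all passed without either Stc1-labelled library, 17 without Pygo1-labelled replicate 1 and 15 without Pygo1-labelled replicate 2. Only 6 passed without either Rlim-labelled library, 5 without either WT library and 0 with the 4 libraries alone. With limma voom 13 passed. Once the median of each 10-Mb bin was removed 19 passed, and Cxcl12, Cnnm1, Cdh11, Saa1 and Car14 did not. Crtac1, Cnnm1, Mecom, Ucp2, Mlxipl and Car14 overlap another annotated gene on the other strand. So do Adam8, Adamts4, Slc7a7, Ctnnb1, Pax8, Gon4l, Bdh1 and Heg1 below. The values of all these genes are uncertain because the strand setting of the counting is not given. Saa1 is nearly identical to Saa2 and is uncertain too. In bulk RNA, fewer cells with a transcript and less of it per cell cannot be told apart.

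**Figure D1:**
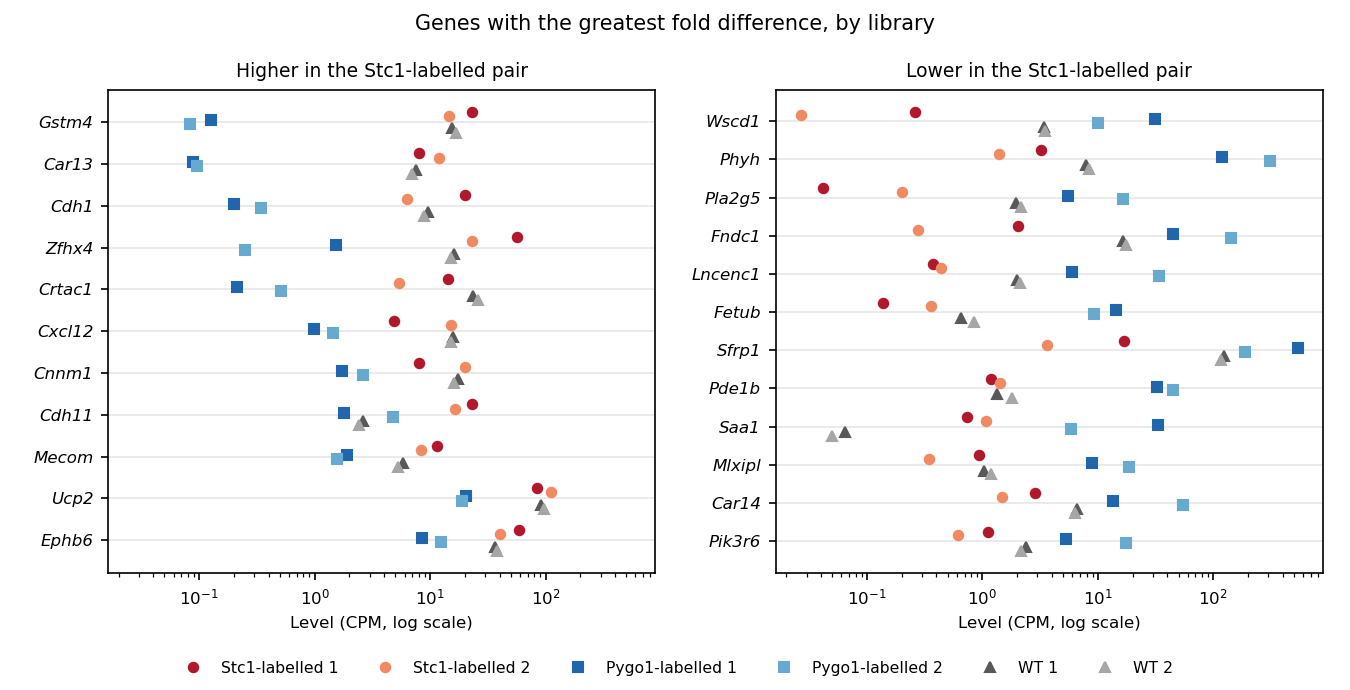
Level in CPM on a log axis of genes with the largest positive (left) and negative (right) fold change, 1 point per library. Circles are the Stc1-labelled libraries, squares the Pygo1-labelled ones and triangles WT. The circles and squares of each gene do not overlap, and WT mostly lies near the circles on the left, while on the right it lies near them for Pde1b and between the pairs for Sfrp1.

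Gene lists were described by their called members and their median, beside the 1.74% of all genes called and the median of 0.02. Of the 22 list members called, 5 passed in all 8 fits that leave out 1 library, 11 passed with limma voom, and 15 passed once the median of each 10-Mb bin was removed. In the list of NF-kB signalling and inflammation, 37 of 41 genes were tested, 0 were higher, 2 were lower and the median was 0.10. The 2 lower genes were Nfkb1, which encodes the p105 precursor of the p50 subunit, and Lcn2, which encodes lipocalin 2, a binder of bacterial siderophores. Nfkb1 measured 107 and 88.2 CPM in the Stc1-labelled libraries against 305 and 294 CPM in the Pygo1-labelled ones, with WT at 136 and 133 CPM (log2 fold change -1.62 ± 0.13, edgeR adjusted p = 0.0056). Lcn2 measured 265 and 269 CPM against 1136 and 913 CPM, with WT at 61.5 and 62.1 CPM (log2 fold change -1.94 ± 0.14, edgeR adjusted p = 0.00439). Both pairs thus lay above WT for Lcn2, the Pygo1-labelled pair further. Both genes passed whichever single library was left out. Nfkb1 lies in a stretch of chromosome 3 whose genes were lower together, described below. After that shift was removed its log2 fold change was -0.72 (edgeR adjusted p = 0.0576). The NF-kB targets Cxcl1, Ccl2 and Nfkbia did not pass.

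Among 18 tested genes of the acute phase and of iron handling, 3 were lower, 0 were higher and the median was -0.80. Besides Lcn2 these were Saa1, a serum amyloid A apolipoprotein, and Steap3, a ferrireductase of endosomes. Saa1 measured 0.734 and 1.06 CPM in the Stc1-labelled libraries against 33.3 and 5.90 CPM in the Pygo1-labelled ones, and WT lay at 0.0651 and 0.0501 CPM. Steap3 measured 132 and 84.8 CPM against 289 and 243 CPM, with WT at 170 and 185 CPM. Steap3 passed in 2 of the 8 fits that leave out 1 library, and Saa1 in 4. Neither passed once bins were centred (edgeR adjusted p = 0.0766 for Steap3 and 0.0628 for Saa1). The pairs did not overlap for 9 of the 18 genes, all lower under the Stc1 label, beside 37.5% of all genes tested. Orm1 and Orm2, acid glycoproteins of the same response, had log2 fold changes of -3.85 and -3.44 without passing (edgeR adjusted p = 0.133 and 0.216).

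The interferon list held 36 tested genes, of which 1 was lower, and its median was -0.24. Mx2, annotated here as a polymorphic pseudogene, measured 3.10 and 2.94 CPM in the Stc1-labelled libraries against 8.45 and 9.35 CPM in the Pygo1-labelled ones (log2 fold change -1.56 ± 0.19, edgeR adjusted p = 0.0175). The pairs did not overlap for 15 of the 36, a share near the 37.5% of all genes tested, and 14 of those were lower. Irf9, a factor that carries the interferon signal, had a log2 fold change of 0.00 and did not pass. Of 17 tested complement genes Masp1, a protease of the lectin pathway, was lower at 4.31 and 3.59 CPM against 11.5 and 9.77 CPM. The macrophage marker Cd68, a lysosomal glycoprotein picked after its values were seen, was lower at 2.67 and 2.64 CPM against 7.61 and 6.52 CPM, and passed in 2 of the 8 fits that leave out 1 library. Of 10 haematopoietic markers 5 were tested, with a median of 0.05 and 3 above 0, and Cd68 was the only call. Csf1r and Cd14 held most of their summed level and did not pass, while the T cell gene Cd3e had 0 reads. The sum was 113 and 96.1 CPM against 87.4 and 112 CPM.

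The genes around the targets themselves gave few calls. Of the 17 members of the pygopus and beta-catenin complex none passed, and the median was 0.21. Ctnnb1, beta-catenin, measured 330 and 441 CPM under the Stc1 label against 362 and 338 CPM under the Pygo1 label. The related gene Pygo2 measured 184 and 215 CPM against 187 and 282 CPM. In the list of Wnt ligands, receptors and targets, Sfrp1 was the only called gene of 34. The targets Axin2, at 7.78 and 48.8 CPM against 14.1 and 14.6 CPM, and Myc, at 84.1 and 74.3 CPM against 80.1 and 95.1 CPM, overlapped between the pairs. Of 18 tested genes of the stanniocalcin list, Ucp2 was the only one called. Pappa, the PAPP-A gene, measured 3.53 and 4.21 CPM against 1.98 and 2.89 CPM and did not pass (edgeR adjusted p = 0.255).

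Matrix and contractile genes gave a few calls, each lower in the Stc1-labelled libraries. Postn, the matricellular protein periostin, measured 2.38 and 2.77 CPM against 14.4 and 31.6 CPM in the Pygo1-labelled libraries, with WT at 7.92 and 6.70 CPM (log2 fold change -3.16 ± 0.38, edgeR adjusted p = 0.0163). It was the only one of 33 matrix genes called, and the median of that list was -0.20. The proteases Adamts4, an aggrecanase, and Adam8, a membrane-bound metalloprotease, were lower by 2.73 and 1.70 on the log2 scale among 27 tested, and Adamts4 did not pass once bins were centred (edgeR adjusted p = 0.0615). Lmod1, an actin nucleator of smooth muscle, measured 0.637 and 0.706 CPM against 4.69 and 6.15 CPM. Of the 16 fibroblast markers, 11 were tested and none passed, with a median of -0.60. Fn1 and Vim were abundant, at 3808 to 4562 and 832 to 1279 CPM over the 4 libraries, while Col1a2, Lum, Thy1, Twist1 and Fap were too scarce to test in cells labelled as fibroblasts.

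Kidney and epithelial genes went both ways, and of 35 tested genes of epithelial junctions Cdh1 and Cdh11 were higher and Cldn2 was lower. Of 21 tested tubule genes Fxyd2 was higher, whereas Cldn2, a claudin that forms cation pores, and Slc7a7, a subunit of an amino acid exporter, were lower by 1.11 and 1.45 on the log2 scale. Cldn2 measured 26.1 and 22.5 CPM in the Stc1-labelled libraries against 51.4 and 53.6 CPM in the Pygo1-labelled ones, both below WT at 133 and 132 CPM. The summed level of 12 kidney epithelium markers was 4841 and 4482 CPM under the Stc1 label against 3302 and 3780 CPM under the Pygo1 label. WT summed to 4014 and 4156 CPM. Cdh16, a kidney cadherin, was the most abundant at 2150 and 2364 CPM against 1225 and 1581 CPM (edgeR adjusted p = 0.0881, not passing). Of these markers 11 were tested, with 6 fold changes above 0, 5 below it and a median of 0.14. Cdh1 was the only call among them. The part of cell makeup in Cdh1 and Fxyd2 was not tested. Of the nephric transcription factors none of 19 passed. Pax2 measured 927 and 844 CPM against 725 and 649 CPM, and Pax8 measured 623 and 480 CPM against 489 and 510 CPM.

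Hox genes, which set position along the body axis, gave no call. Of 32 tested, 28 had a fold change above 0 and 4 below it, beside 47.7% of all genes below 0, and the median was 0.27. The pairs did not overlap for 16 of them, beside 37.5% of all genes, and all 16 lay higher under the Stc1 label, such as Hoxb9 at 160 and 164 CPM against 125 and 130 CPM (edgeR adjusted p = 0.146). Hoxb6, at 107 and 113 CPM against 97.0 and 118 CPM, was not among these. Some other lists had as large a share of pairs that did not overlap. Such were 10 of 19 nephric transcription factors (6 higher, 4 lower) and 14 of 27 cholesterol genes (10 higher, 4 lower). Genes tied to X inactivation had 31 of 38 fold changes above 0, a median of 0.20 and no call.

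Metabolic and growth lists gave single calls. Mvd, an enzyme of cholesterol synthesis, was higher at 88.4 and 88.1 CPM against 48.9 and 57.4 CPM (log2 fold change 0.73 ± 0.12, edgeR adjusted p = 0.0405) and was the only one of 27. Id2, a target of BMP signalling, was higher by 0.87 ± 0.12 on the log2 scale with pairs that did not overlap (edgeR adjusted p = 0.0252), the only one of 35. Aldoc, a glycolytic aldolase, was lower at 0.208 and 0.200 CPM against 1.32 and 1.57 CPM, the only one of 33. Cenpe, a kinetochore motor, was lower by 1.45 on the log2 scale, the only one of 34 cell cycle genes, and by 0.56 without passing once the shift of its stretch of chromosome 3 was removed. Gstm4 was the only call among 37 genes of the NRF2 and glutathione list, whose median was -0.19. No member passed in the lists of YAP targets, the ATF4 response, p53 and CDK inhibitors, nuclear oxidative phosphorylation or mitochondrially encoded genes.

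**Figure D2:**
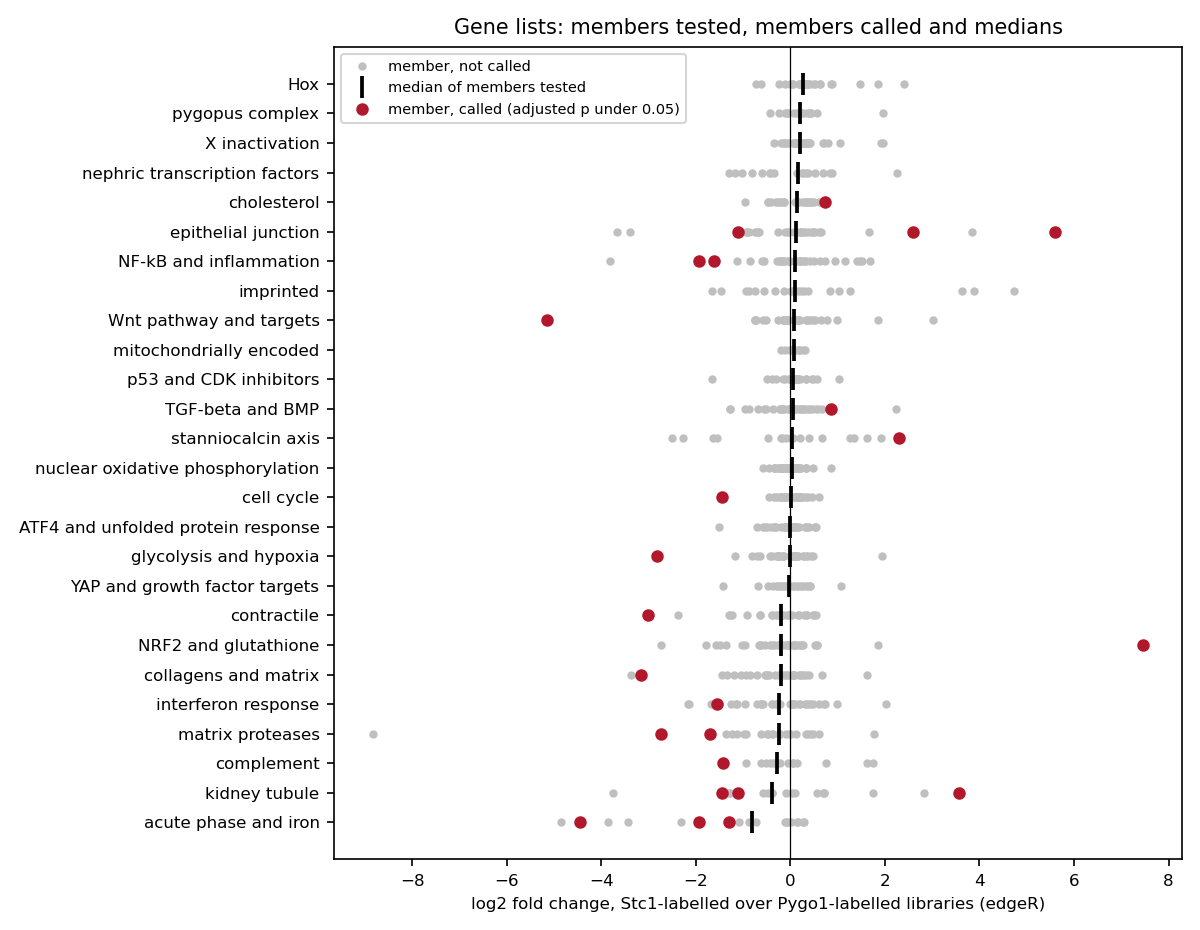
Log2 fold change of every tested member of 26 gene lists, Stc1-labelled over Pygo1-labelled libraries, fitted with edgeR. Grey points are members not called, red points members called at an adjusted p under 0.05 and black ticks the list medians. The acute phase and iron list has the lowest median, at -0.80, and the Hox list the highest, at 0.27. The leftmost grey point, Adamts2, had no reads in the Stc1-labelled libraries, so its position depends on the prior count of the fit.

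Shares of the parental genomes were compared in a fit of their own. Among 12712 genes with at least 20 reads with a genome in each of the 4 libraries, 1351 (10.6%) differed in their share of genome 2 (edgeR, adjusted p under 0.05). Genome 2 gave a larger share in the Stc1-labelled libraries for 1147 of these and a smaller share for 204. Chromosomes 3, 6, 8, 16 and 19, picked with the values known, held 94.7% of them. In that order 64.6, 37.4, 33.0, 44.4 and 46.5% of their tested genes differed, beside 10.6% of all. With the 4 libraries alone 348 genes passed, of which 232 lay on chromosome 3 and 110 on chromosome 19. Without Pygo1-labelled replicate 1 or 2 the count was 2962 or 2152.

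Shares by region are medians over genes with at least 20 reads with a genome in each of the 4 libraries. On chromosome 3 up to 110 Mb, a limit drawn after the values were seen, the median genome 2 share was 27.6 and 28.9% under the Stc1 label against 0.226 and 0.164% under the Pygo1 label, with WT at 23.4 and 23.8%. Genome 2 was close to absent in both Pygo1-labelled lines, and 418 of the 491 genes there passed, all with more genome 2 under the Stc1 label. The median log2 fold change of the level was 0.04 over 727 genes, with 8 called higher and 4 lower. Read by genome, with 0.1 CPM added to each level, the median log2 difference was 4.03 for genome 2 and -0.46 for genome 1. For their sum it was -0.03, so genome 1 was higher in the Pygo1-labelled lines where genome 2 was missing. The added 0.1 CPM shrinks the genome 2 value, since the Pygo1-labelled lines had almost no such reads.

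On chromosomes 6 and 19 genome 2 was low in the Pygo1-labelled lines over other lengths. From 10 to 130 Mb of chromosome 6 the median share was 27.8 and 40.5% under the Stc1 label against 4.76 and 0.163% under the Pygo1 label, and 182 of 531 genes passed. Pygo1-labelled replicate 1 thus kept a small remainder of genome 2 that replicate 2 lacked. WT stood at 27.3 and 27.5% there and the Rlim-labelled libraries at 0.22 and 0.17%. Low genome 2 on chromosome 6 was therefore not particular to the Pygo1 label. Beyond 10 Mb of chromosome 19 the median share was 22.2 and 24.4% under the Stc1 label against 1.97 and 0.236% under the Pygo1 label. There 190 of 270 genes passed. That pooled value mixes stretches. From 10 to 20 Mb the share was 16.6 and 23.3% under the Stc1 label against 10.7 and 0.096% under the Pygo1 label, with WT at 20.3 and 20.3%. In the 4 bins from 20 to 60 Mb it was 0.202 to 0.931% in Pygo1-labelled replicate 1 and 0.129 to 1.08% in replicate 2, and beyond 60 Mb, over 10 genes, it was 15.9 and 16.5%. Other chromosomes lost genome 2 in a single line. The median share on chromosome 14 was 48.5 and 38.4% under the Stc1 label against 0.761 and 49.1% under the Pygo1 label, and on chromosome 5 it was 24.3 and 28.4% against 21.7 and 0.155%. Up to 50 Mb of chromosome 1 the loss was in Stc1-labelled replicate 1, at 1.11 and 34.97% against 29.3 and 29.6%.

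Chromosomes 8 and 16 differed by degree. Beyond 80 Mb of chromosome 8 the median genome 2 share was 41.5 and 44.5% under the Stc1 label against 28.6 and 28.5% under the Pygo1 label, with WT at 42.6 and 42.4%. There 225 of 387 genes passed, all with more genome 2 under the Stc1 label. On chromosome 16 it was 44.2 and 42.1% against 58.6 and 59.7%, and 173 of 390 genes passed, all with less genome 2 under the Stc1 label. Chromosomes 2, 4, 9, 11 and X were read almost wholly from 1 genome under both labels, with medians on the X of 99.6 and 99.8% against 99.6 and 99.8% and 0 of 363 X-linked genes called.

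**Figure D3:**
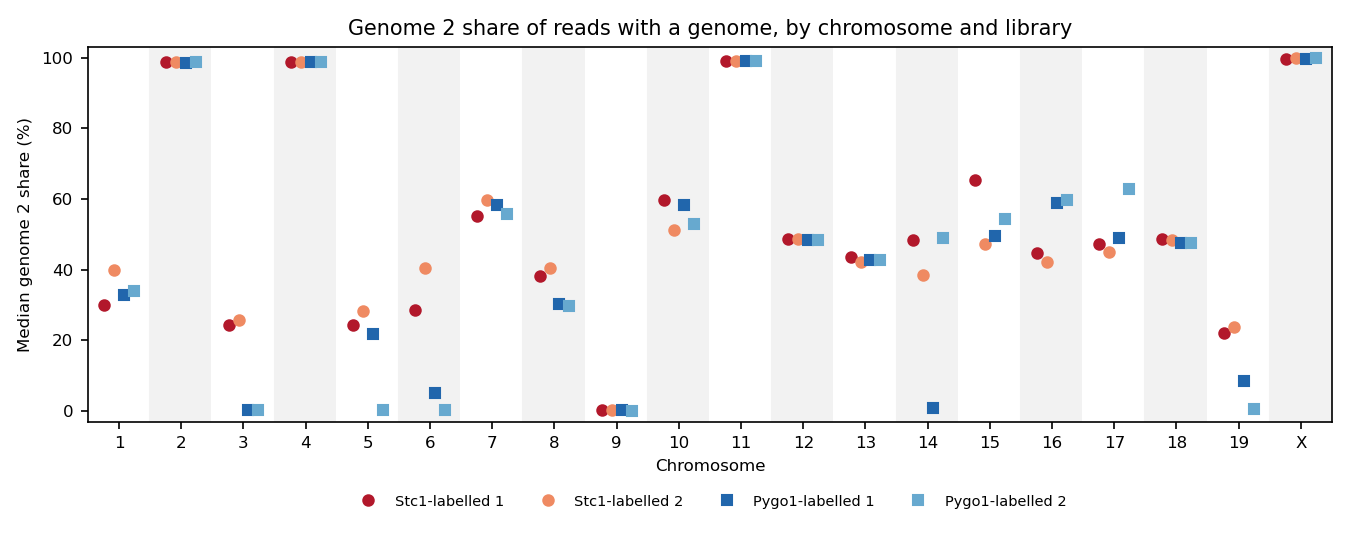
Median share of genome 2 in percent over genes with at least 50 reads with a genome in each of the 4 libraries, by chromosome. Circles are the Stc1-labelled libraries and squares the Pygo1-labelled ones. The squares lie near 0 on chromosome 3 in both lines, on chromosome 14 in 1 line and on chromosome 5 in the other, and above the circles on chromosome 16.

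Single genes show how levels did or did not follow. Kirrel, an adhesion protein also known as Neph1 and found in the kidney filter, gave 4622 and 8690 genome 2 reads under the Stc1 label against 66 and 64 under the Pygo1 label. Its genome 1 reads were 14520 and 22330 against 22768 and 25179, and its level did not pass (share log2 odds ratio 7.02, edgeR adjusted p = 2.07e-05). Pax2 likewise lost nearly all genome 2 reads in the Pygo1-labelled libraries, at 8033 and 6658 against 74 and 45, while genome 1 gave 33274 and 31670 against 35872 and 29296. Tpd52, Pag1, Smg5, Pmf1 and Gon4l on chromosome 3 gave shares of the same kind (edgeR adjusted p = 2.07e-05 each, and 0.0151 each with the 4 libraries alone), and the level of none of them passed.

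Some genes with many genome 2 reads in the Stc1-labelled libraries differed in level too. Bbs7 (chr3:36573142-36613477, minus strand), a subunit of the BBSome of cilia, was picked after its values were seen. It gave 73 and 203 genome 2 reads and 0 genome 1 reads in the Stc1-labelled libraries, against 0 reads of any kind in the Pygo1-labelled ones. At 2.45 and 5.86 CPM under the Stc1 label it was at least 100.6-fold higher, taking 3 counts in a Pygo1-labelled library as the floor that 0 reads allow. Gstm4 gave 722 and 472 genome 2 reads against 2 and 5, and 53 and 24 genome 1 reads against 2 and 0. Ephb6, a kinase-dead ephrin receptor on chromosome 6, gave 1356 and 1487 genome 2 reads against 147 and 2, and 1427 and 323 genome 1 reads against 282 and 612. Its level was 59.3 and 40.2 CPM against 8.48 and 12.5 CPM. The Ephb6 genome 2 share, 48.7 and 82.2% against 34.3 and 0.326%, did not pass (edgeR adjusted p = 0.383).

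The imprinted neighbours Peg10 and Sgce on chromosome 6, picked after their values were seen, gave reads of genome 2 alone in the 4 libraries. Peg10, a gag-like gene of retrotransposon origin needed in the placenta, measured 17.1 and 24.4 CPM in the Stc1-labelled libraries against 1.55 and 0 CPM in the Pygo1-labelled ones. Sgce, epsilon-sarcoglycan, measured 9.003 and 9.56 CPM against 1.23 and 0 CPM. Neither passed (edgeR adjusted p = 0.121 and 0.163), and both were lowest in the Pygo1-labelled line with the lower genome 2 share on chromosome 6.

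Over the 3 regions of chromosomes 3, 6 and 19 together, genes with at least 40 reads with a genome in the Stc1-labelled pair were sorted by their genome 2 share in that pair. Of 41 genes at 90% and over, 15 (36.6%) were at least 2-fold higher under the Stc1 label, 2 were called higher and 0 lower. Of 134 genes at 50 to 90%, 46 (34.3%) were at least 2-fold higher, 9 were called higher and 2 were called lower. Of 1103 genes at 10 to 50%, 23 (2.09%) were at least 2-fold higher, 6 were called higher and 7 were called lower. Of 156 genes under 10%, 13 (8.33%) were at least 2-fold higher, 1 was called higher and 5 were called lower. Shares and levels come from the same reads, and the read minimum and the sorting both used the Stc1-labelled pair alone. Genes with few reads in that pair dropped out even where the Pygo1-labelled pair had more. The counts therefore favour genes higher under the Stc1 label, and this is a description without a test.

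On chromosome 16 the genes with the strongest difference in the other direction were Bdh1, Heg1, Vasn, Fam43a, Sod1 and Tfg. Fam43a gave 1056 and 583 genome 2 reads under the Stc1 label against 3334 and 5147 under the Pygo1 label, and 2961 and 2125 genome 1 reads against 2828 and 3232 (share log2 odds ratio -2.13, edgeR adjusted p = 0.0023). Sod1, the cytosolic superoxide dismutase, gave 318 and 797 genome 2 reads against 722 and 813 (share log2 odds ratio -1.23, edgeR adjusted p = 0.0032). The level of none of the 6 passed, and with the 4 libraries alone only the share of Bdh1, a ketone body dehydrogenase, passed (edgeR adjusted p = 0.046).

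**Figure D4:**
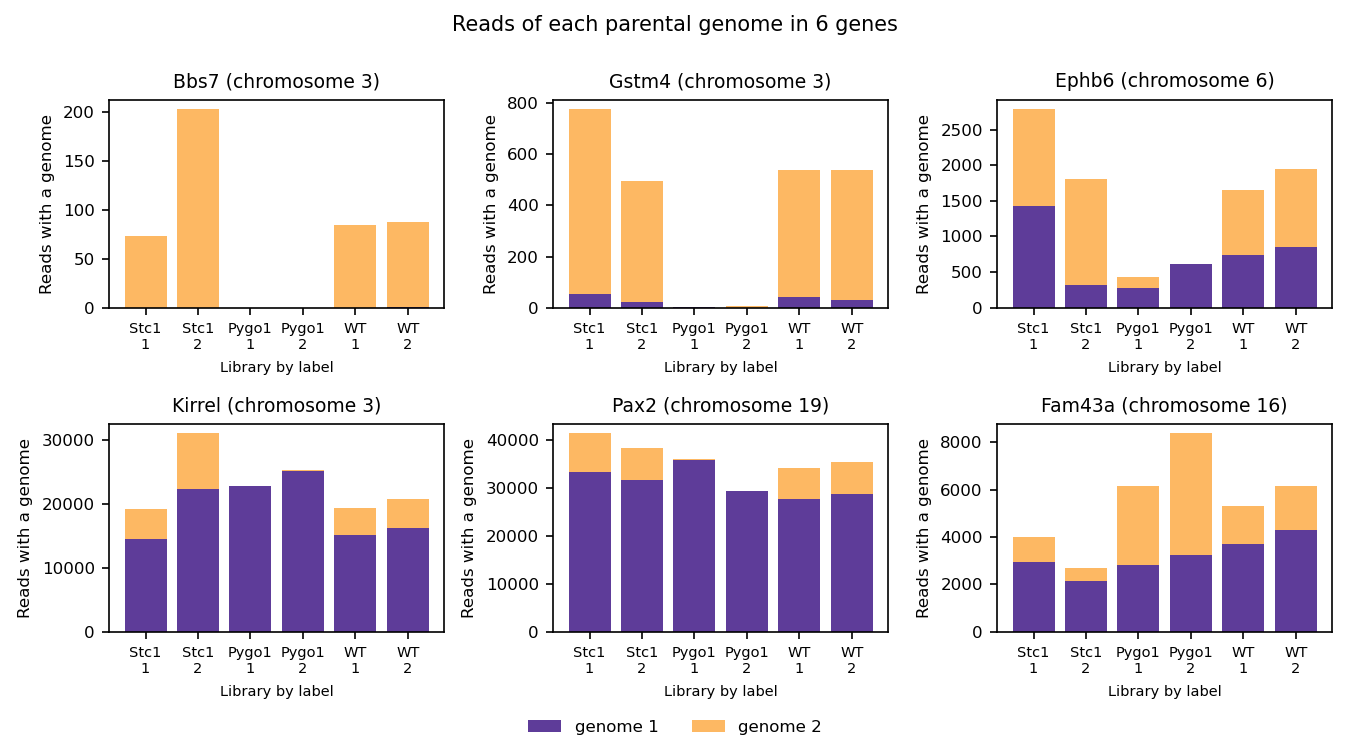
Reads assigned to genome 1 (purple) and genome 2 (orange) in 6 genes, 1 stacked bar per library, with the Stc1-labelled libraries left of the Pygo1-labelled ones and WT. In the Pygo1-labelled libraries Bbs7 and Gstm4 lose nearly all reads, and Kirrel and Pax2 lose genome 2 alone. Ephb6 has fewer genome 2 reads there, at 147 and 2 against 1356 and 1487 under the Stc1 label. Fam43a has more genome 2 reads under the Pygo1 label.

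Levels of neighbouring genes shifted together in some stretches. Of 266 bins of 10 Mb with at least 8 genes tested, 17 had a median log2 fold change above 0.3 and 13 one below -0.3. These bins held 10.8% of the genes tested and 27.5% of the genes called (85 of 309), and 78 of the 85 were on the side of their bin. The bins were picked by medians that include the called genes. Both results are therefore partly built in and are a description without a test. Centring each bin, a choice made after the data were seen, left 180 calls.

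The deepest shift was on chromosome 3 from 130 to 140 Mb, where the median of 60 genes was -0.89 and 15 were lower and 1 higher in the Stc1-labelled libraries. Relative to their mean over the 4 libraries, genes there had a median log2 level of -0.35 and -0.28 under the Stc1 label against 0.39 and 0.30 under the Pygo1 label. Genome 2 gave a median of 1.23 and 0.672% of reads there against 0.989 and 1.41%, so the shift was carried by genome 1. On chromosome 15 the median of 689 genes was -0.30, with 0 genes higher and 31 lower, and it was -0.41 from 70 to 100 Mb. From 70 to 100 Mb the per-library medians were -0.04 and -0.30 under the Stc1 label against 0.08 and 0.29 under the Pygo1 label. Replicate 2 of each label thus carried most of that shift. The most abundant genes of chromosome 15, Myh9, a non-muscle myosin heavy chain, and Plxnb2, a semaphorin receptor, did not pass. Their log2 fold changes were -0.24 and -0.30. Genes from 90 to 110 Mb of chromosome 13 had a median of -0.45, with 8 lower of 116. There the per-library medians were -0.11 and -0.27 under the Stc1 label against 0.39 and 0.02 under the Pygo1 label.

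Upward, chromosome 8 beyond 80 Mb had a median of 0.40 over 519 genes, with 18 higher and 2 lower. Cdh1, Cdh11 and Mvd lie in it, and once the bins were centred Cdh1 still passed (log2 fold change 5.14, edgeR adjusted p = 0.0185) while Cdh11 (2.13, 0.0894) and Mvd (0.43, 0.166) did not. With 0.1 CPM added to each level, genome 2 was 0.93 higher there on the log2 scale and genome 1 was 0.08 higher. The X chromosome had a median of 0.22, but its per-library medians, -0.17 and 0.31 under the Stc1 label against 0.12 and -0.28 under the Pygo1 label, overlapped.

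**Figure D5:**
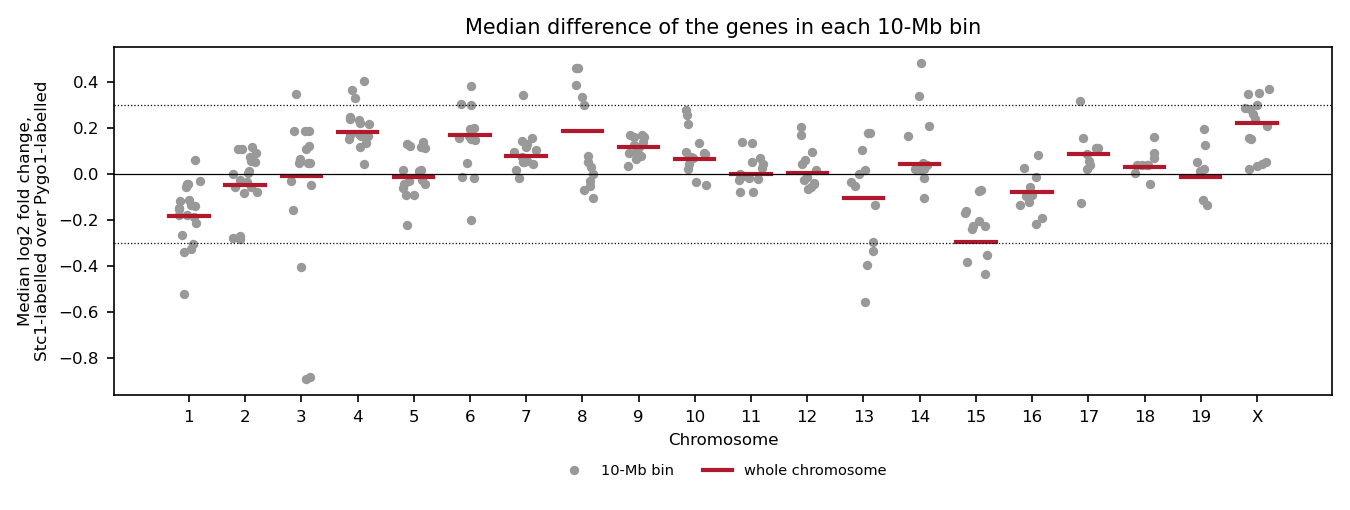
Median log2 fold change, Stc1-labelled over Pygo1-labelled libraries, of the genes in each 10-Mb bin (grey points) and on each whole chromosome (red lines). Dotted lines mark 0.3 and -0.3. The lowest bins lie on chromosome 3, at -0.89 and -0.88, and chromosome 15 is the only chromosome with its median near -0.30. The bin at -0.88, from 150 Mb, rested mostly on Stc1-labelled replicate 1. Its per-library medians were -0.70 and 0.11 under the Stc1 label against 0.33 and 0.25 under the Pygo1 label.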

How the data were processed

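Raw counts of reads for each Ensembl gene in 8 libraries were deposited by the authors, as all reads, reads of genome 1 and reads of genome 2. The build mm10, featureCounts, Cufflinks and HISAT2 2.0.5 are named, without roles, per the submitters' processing notes. The annotation, the strand setting and how reads were assigned to a genome are not given in the sources used here. Alignment to mm10 may favour reads of C57BL/6, and shares are therefore set only against other libraries. Of 49670 genes, 49411 matched GENCODE M21 on GRCm38, while 259 did not, with up to 0.0139% of the counts in any library.

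The gene fit used edgeR 4.0.16 under R 4.3.3, TMM factors, the default filter and 1 mean per group over all 8 libraries (common coefficient of biological variation 24.6%, with 2.94 prior degrees of freedom). Genome counts were fitted with library terms plus 1 genome 2 term per group, leaving out 329 genes whose genome sum exceeded all reads. Genes were called at a Benjamini-Hochberg adjusted p under 0.05. Both fits were tested on simulated data with the same spread in every group, so the effect of unequal spread was not tested. DESeq2 1.42.0 and limma 3.58.1 were alternatives, and figures were drawn with matplotlib 3.10.9. P-values measure the spread between these libraries, and nothing states that the WT pair came from separate cultures.

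Named genes were the targets, Rlim and Xist, the 12 largest positive and 12 largest negative fold changes among calls averaging 5 CPM or more over the 4 libraries with pairs that do not overlap, up to 4 called members of each list or else its 2 most abundant, 6 genes in each direction for genome shares (at least 200 reads with a genome in each of the 4 libraries), and the 2 most abundant genes of any chromosome more than 0.3 from the overall median. Predicted genes were passed over, and 1 of the 12 positive ones is not reported here. Other members of the lists are named as examples, chosen after their values were seen. The core of 21 genes, Bbs7, Peg10, Sgce, Cd68 and all region limits were chosen after their values were seen. The members, lists and tests were chosen with earlier results of these data known.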

Additional observations from a re-analysis of the deposited data

How the results depend on the processing

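The call count depended on the processing. Main counts were 310 in all, 91 higher and 219 lower. RLE or upper-quartile scaling, a stricter filter and a 2-fold minimum moved none of the 3 counts by over 1.5 times. Centring each chromosome gave 224, 56 and 168, and centring each 10-Mb bin, added after the data were seen, gave 180, 50 and 130. Limma voom with weights gave 72, 33 and 39, DESeq2 1188, 474 and 714, no filter 683, 207 and 476, and an adjusted p under 0.01 gave 23, 9 and 14. The 4 libraries alone gave 0, 0 and 0 in edgeR, and the fit without the Rlim-labelled pair 25, 9 and 16. Leaving out each of the 8 libraries in turn gave 22 to 4087 calls, 9 to 1835 higher and 13 to 2252 lower.

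The genome share count of 1351 was 1340 with at least 50 reads, 348 with the 4 libraries alone, and 1370 to 2962 without each Stc1-labelled or Pygo1-labelled library in turn. Among the genes named by the rules or picked later, 1517 alternative values kept their side of the threshold, 321 lost a call, 32 gained 1 and 1 passed in the opposite direction. That was Sod1, not called at 0.15, whose log2 fold change ran from -0.52 to 0.60 when single libraries were left out, the lower value without Stc1-labelled replicate 2. Leaving out single libraries turned the sign of 26 of the 94 genes, Sod1 included and none of them called with all libraries, among them Stc1 (-1.38 to 2.83) and Rlim (-0.36 to 0.80). The cause was not tested.

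With the replicate block, 96 genes passed, 29 higher and 67 lower. Same-numbered libraries of the Stc1 and Pygo1 labels deviated with a correlation of -0.209 (-0.209 to 0.392 over all pairs of groups), so the numbers were not taken to pair them, and with the Pygo1 numbers crossed in the replicate block 133 passed, 37 higher and 96 lower. Genome shares have no further block beyond the library terms. At 73128996 to 79145436 counts per library, counting error was small beside the spread between lines at the median of genes averaging 5 CPM or more. For scarcer genes, such as Snap91 with 12 and 5 reads under the Stc1 label, it was not compared. Having 2 lines a label limits what can pass.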
